A study of Mus musculus with 2 samples.

Results

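The transcripts of 10 secreted signals of the transforming growth factor beta (TGF-beta) superfamily were followed in interscapular brown adipose tissue (iBAT) of mice. They were chosen by name as members of 1 family, with no threshold on their values, and matched by gene identifier among the 52768 genes in each table: the ligands *Tgfb1*, *Tgfb2*, *Tgfb3*, *Inhba*, *Inhbb*, *Mstn*, *Bmp4* and *Bmp7* and the antagonists *Fst* and *Grem1*. The choice was made with earlier results of these data known, as was that of the pathway roles and marker lists below. Counts set beside those of all genes are therefore descriptions and not tests. iBAT came from C57BL/6 mice at 8 weeks of age of 2 genotypes, Mettl3 flox/flox, the control, and BKO, which carries the same floxed alleles together with Ucp1-iCre, a recombinase driven by the promoter of the brown adipocyte gene *Ucp1*. All mice therefore carried the floxed *Mettl3* alleles, and the recombinase was directed at *Ucp1*-expressing cells while RNA was taken from the whole tissue. Per the methods of the study, each genotype was a pool of RNA from 4 mice, so there was 1 library per group, no replicate and no test between genotypes. The comparison asks which of these signals differed in iBAT when the m6A methyltransferase *Mettl3* was targeted.

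Ligands of this family are made as precursors, cut by proteases and released as dimers that bind a pair of serine/threonine kinase receptors, called type I and type II. The receptors phosphorylate SMAD proteins, which enter the nucleus with SMAD4 and change transcription. TGF-betas, activins and myostatin act mainly through SMAD2 and SMAD3, and bone morphogenetic proteins (BMPs) through SMAD1, SMAD5 and SMAD9. In fat tissue BMP7 is known to promote brown adipocyte formation, BMP4 commits mesenchymal precursors to the adipocyte lineage, and TGF-betas restrain adipogenesis and drive matrix production. Myostatin is made chiefly by skeletal muscle, where it limits growth.

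Promoter sequences of GRCm38.p6 from RefSeq were matched by symbol to 7 of the 10 genes, *Tgfb1*, *Tgfb2*, *Inhba*, *Inhbb*, *Mstn*, *Bmp4* and *Grem1*, and not to *Tgfb3*, *Bmp7* and *Fst*. The 250 bases before the start of 3 genes are shown because these had the largest ratios between the libraries among the 7. They run 5′ to 3′ on the strand of the gene, from chr1:53061390-53061639 (plus strand) for *Mstn*, chr1:119422249-119422498 (minus strand) for *Inhbb* and chr14:46390670-46390919 (minus strand) for *Bmp4*. Capitals mark matches on either strand to the E-box (CANNTG), the SMAD box (CAGAC), the TATA box (TATAAA), the GC box (GGGCGG) or the AP-1 element (TGANTCA).
Mstn: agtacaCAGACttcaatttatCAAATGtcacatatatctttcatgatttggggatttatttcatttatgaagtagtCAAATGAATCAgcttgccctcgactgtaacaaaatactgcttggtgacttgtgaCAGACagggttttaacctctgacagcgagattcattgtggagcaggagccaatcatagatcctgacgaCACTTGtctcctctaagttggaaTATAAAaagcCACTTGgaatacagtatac
Inhbb: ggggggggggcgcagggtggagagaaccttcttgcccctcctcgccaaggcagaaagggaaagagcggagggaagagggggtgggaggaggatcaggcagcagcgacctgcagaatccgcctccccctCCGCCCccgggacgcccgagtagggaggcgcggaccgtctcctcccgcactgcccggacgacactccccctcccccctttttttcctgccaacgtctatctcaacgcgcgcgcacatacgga
Bmp4: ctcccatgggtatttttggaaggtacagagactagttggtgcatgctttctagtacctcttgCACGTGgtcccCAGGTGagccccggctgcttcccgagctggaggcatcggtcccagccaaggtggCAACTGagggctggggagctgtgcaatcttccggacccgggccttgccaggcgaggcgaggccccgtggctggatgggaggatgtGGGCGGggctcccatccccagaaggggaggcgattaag
The *Mstn* window held 4 E-box matches, at 229, 174, 52 and 19 bases before the start, SMAD box matches at 244 and 120 bases, an AP-1 match at 170 bases that overlaps the E-box match at 174, and a TATA box match at 29 bases. The *Inhbb* window held only a GC box match, at 122 bases, and the *Bmp4* window E-box matches at 188, 177 and 123 bases and a GC box match at 38 bases. The windows also differed in base composition, with 38.4% G and C in the *Mstn* window, 68.0% in that of *Inhbb* and 63.2% in that of *Bmp4*, against a median of 52% over 27025 promoters. Of all these promoters 66.0% held an E-box match, 42.1% a SMAD box, 32.9% a GC box, 13.0% a TATA box and 6.87% an AP-1 match. Of the 7 promoters of this family, 3 held an E-box match, 3 a SMAD box, 4 a GC box, 3 a TATA box and 1 an AP-1 match. A match describes letters and not a bound site.

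The deposited values are FPKM, fragments scaled by exon length and library size, from which whole fragments could be recovered. Annotated genes held 18933003 fragments in flox/flox and 20224261 in the other library, with estimates for genes whose fragments were undetermined. *Mettl3* itself was at 1.80 FPKM (165 fragments) in flox/flox and 2.38 FPKM (253 fragments) in the BKO library, 1.32-fold higher (1.08 to 1.62). This whole-gene value mixes the floxed exons with the rest and cannot test the label, so the latter is called the library labelled BKO. Gene coordinates are those of GRCm38 in the GENCODE M21 annotation, and all 10 are protein-coding genes. Pairs of values stand in the order flox/flox, library labelled BKO. *Ucp1*, the uncoupling protein of brown fat, was at 3164 and 537 FPKM, and all 10 brown adipocyte markers were detected in both libraries, with sums of 10521 and 6828 FPKM. Their values were split: *Ucp1*, *Prdm16* and *Ppargc1a* were lower by 2-fold or more, *Elovl3* was 5.63-fold higher, and the other 6 were within 2-fold, of which *Adipoq*, *Fabp4* and *Plin1* were higher. Markers of skeletal muscle fibres and fibroblasts and most macrophage markers stood higher in the library labelled BKO. Endothelial markers and most markers of pericytes and smooth muscle stood lower. These lists are described with the results they accompany. Intervals in brackets are exact 95% intervals of a ratio that reflect the counting of fragments alone and say nothing of the spread among mice.

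All 10 genes had a higher FPKM in the library labelled BKO, where 51.6% of the 12205 genes averaging 1 FPKM or more were higher, as were 51.1% of the 12651 rarer genes above 0. The median log2 ratio, with 0.1 FPKM added to each value, was 1.01 over the 10 genes, 0.02 over all genes tested and 0.04 over the rarer genes. Only 4 of the 10, *Tgfb1*, *Tgfb3*, *Inhbb* and *Fst*, reached the mean of 1 FPKM, and *Inhbb* did so only through the library in which it was high. Of these 4, *Tgfb3* and *Inhbb* were higher by 2-fold or more and 0 were lower by as much, while 11.0% of all genes tested were higher and 5.91% lower by 2-fold or more. The other 6, *Tgfb2*, *Inhba*, *Mstn*, *Bmp4*, *Bmp7* and *Grem1*, were rare transcripts below that mean.

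**Figure D1:**
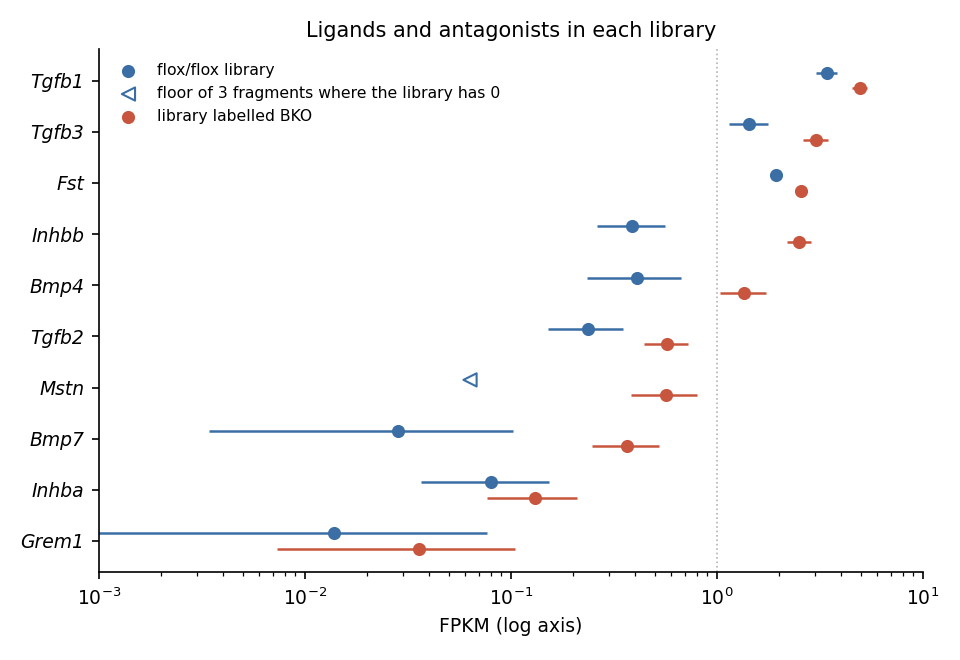
FPKM of each gene (log axis) in the flox/flox library (blue) and the library labelled BKO (red), with exact 95% Poisson intervals from the fragments. *Fst* has none because its fragments were undetermined, the lower end for *Grem1* in the flox/flox library runs off the axis, the open triangle is the floor of 3 fragments for *Mstn* at 0 fragments, and the dotted line marks 1 FPKM. Every red point lies to the right of the blue one, and levels above 0 range from 0.0138 FPKM (*Grem1*) to 4.94 FPKM (*Tgfb1*).

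Among the TGF-beta isoforms, *Tgfb1* (ENSMUSG00000002603, chr7:25687002-25705077, plus strand), the most widely expressed isoform and a product of immune and stromal cells, was the most abundant of all 10 genes in both libraries. It was at 3.42 FPKM (301 fragments) and 4.94 FPKM (504 fragments), a 1.45-fold higher value (1.25 to 1.67). The Poisson intervals of the libraries, 3.04 to 3.82 and 4.52 to 5.39 FPKM, did not overlap. *Tgfb3* (ENSMUSG00000021253, chr12:86056745-86079041, minus strand), an isoform of mesenchymal tissues, was at 1.44 FPKM (85 fragments) and 3.02 FPKM (207 fragments), 2.10-fold higher (1.63 to 2.74). *Tgfb2* (ENSMUSG00000039239, chr1:186622792-186705989, minus strand), which needs the co-receptor betaglycan for efficient binding, was at 0.237 FPKM (24 fragments) and 0.572 FPKM (67 fragments), 2.41-fold higher (1.49 to 4.02). The 3 isoforms together went from 5.09 to 8.53 FPKM, 1.68-fold higher, and *Tgfb1* made up 67.1% and 57.9% of that sum. *Tgfb3* made up 28.2% and 35.4%, and *Tgfb2* 4.66% and 6.70%.

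Macrophage markers stood beside these values: 10 of 11 were higher by 2-fold or more, none was at 0 in either library, and their summed level was 114 and 533 FPKM. Of the fibroblast markers 6 of 9 were higher by 2-fold or more, with a median log2 ratio of 1.83, sums of 416 and 841 FPKM and no marker at 0. In RNA of a whole tissue, more or fewer cells of a type cannot be told apart from more or less RNA per cell. Of the markers of platelets, which store TGF-beta1, *Pf4* was at 7.62 and 29.1 FPKM and the other 3 were lower, and none was at 0. Markers of T and NK cells summed to 2.67 and 2.54 FPKM, and those of Schwann cells to 26.6 and 13.0 FPKM. The part of these cell types in the isoform values was not tested.

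Of the activin subunits 1 had a ratio above those of the TGF-beta isoforms. *Inhbb* (ENSMUSG00000037035, chr1:119415465-119422248, minus strand) encodes the beta B subunit, whose dimer is activin B and which white adipocytes are known to express. It had 0.390 FPKM (29 fragments) and 2.52 FPKM (217 fragments), 6.46-fold higher (4.37 to 9.88). This was the largest ratio among the 4 genes that reached the mean of 1 FPKM, and its log2 ratio of 2.42 lay at percentile 97.1 of all genes tested. *Inhbb* reached that mean only through the library in which it was high, so its place among the genes tested is a description only. *Inhba* (ENSMUSG00000041324, chr13:16011851-16031621, plus strand), the beta A subunit of activin A, was at 0.0806 FPKM (9 fragments) and 0.131 FPKM (17 fragments), and the interval of its 1.63-fold ratio, 0.688 to 4.15, held 1. The sum of both subunits was 0.470 and 2.65 FPKM, of which *Inhba* gave 17.1% and 4.96%. *Inha*, the alpha subunit that turns a beta subunit into inhibin, an activin antagonist, was at 0.582 FPKM (15 fragments) and 0.402 FPKM (12 fragments). It was named after its values were seen, and the interval of its ratio held 1.

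*Mstn* (ENSMUSG00000026100, chr1:53061640-53068079, plus strand), myostatin, was not detected in the flox/flox library, at 0 fragments, where a floor of 3 fragments stands for up to 0.0634 FPKM. In the library labelled BKO it was at 0.566 FPKM (31 fragments), or at least 8.92-fold above that floor, and the interval of its ratio began at 6.83-fold. Its mean lay below 1 FPKM. All 12 markers of skeletal muscle fibres were higher by 2-fold or more, with sums of 54.8 and 3423 FPKM, 62.4-fold apart, and none was at 0 in either library. Of 7 markers of muscle precursors and developing muscle, 6 (*Myog*, *Myod1*, *Pax7*, *Mymk*, *Myh3* and *Myh8*) were at 0 in the flox/flox library and 0 were at 0 in the other, with sums of 0.0549 and 16.3 FPKM. Their part in the *Mstn* value was not tested.

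**Figure D2:**
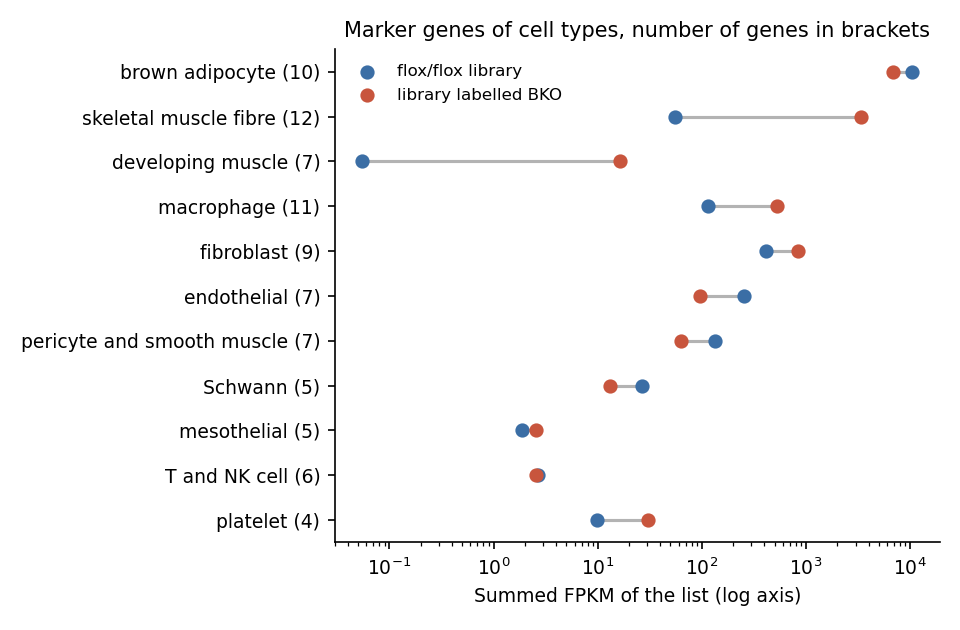
Summed FPKM of each list of cell type markers (log axis) in the flox/flox library (blue) and the library labelled BKO (red), with the number of genes in brackets. Skeletal muscle fibre markers go from 54.8 to 3423 FPKM and macrophage markers from 114 to 533 FPKM, while endothelial markers go from 256 to 95.8 FPKM.

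Both BMP ligands were higher from low levels. *Bmp4* (ENSMUSG00000021835, chr14:46383520-46390669, minus strand) was at 0.412 FPKM (16 fragments) and 1.36 FPKM (61 fragments), 3.29-fold higher (1.87 to 6.12), with a mean of 0.883 FPKM, just below the filter. Its fragments came out whole at a length other than the annotated one. *Bmp7* (ENSMUSG00000008999, chr2:172868012-172940321, minus strand), the brown fat morphogen, had 0.0285 FPKM (2 fragments) and 0.369 FPKM (30 fragments), 13.0-fold higher with a wide interval (3.29 to 112). Of mesothelial cells, which line the body cavities, 1 of 5 markers reached the filter and was within 2-fold, *Msln*, *Upk3b* and *Wt1* were at 0 in the flox/flox library and *Upk3b* in the other, and the sums were 1.89 and 2.53 FPKM. In abundance both BMPs remained below *Bmp6*, the most abundant other ligand, which was at 13.96 and 7.09 FPKM, 1.97-fold lower (1.77 to 2.19). *Bmp6* thus ran against *Bmp4* and *Bmp7*, and its level in either library was above that of all 10 genes.

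The antagonists differed little or were barely present. *Fst* (ENSMUSG00000021765, chr13:114452290-114458951, minus strand), follistatin, which binds activins and myostatin, was at 1.93 and 2.58 FPKM, 1.33-fold higher. Its fragments could not be settled, and with the smallest pair of whole fragments that the values allow, 57 and 88, the interval was 0.945 to 1.89 and held 1. *Grem1* (ENSMUSG00000074934, chr2:113746164-113758646, minus strand), gremlin, an antagonist of BMP2, BMP4 and BMP7, had 1 fragment (0.0138 FPKM) and 3 fragments (0.0357 FPKM), too few for a ratio. The antagonists together were at 1.95 and 2.61 FPKM, 1.34-fold apart, whereas the 8 ligands together were at 6.00 and 13.5 FPKM, 2.25-fold apart. Neither difference between these sums was tested.

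**Figure D3:**
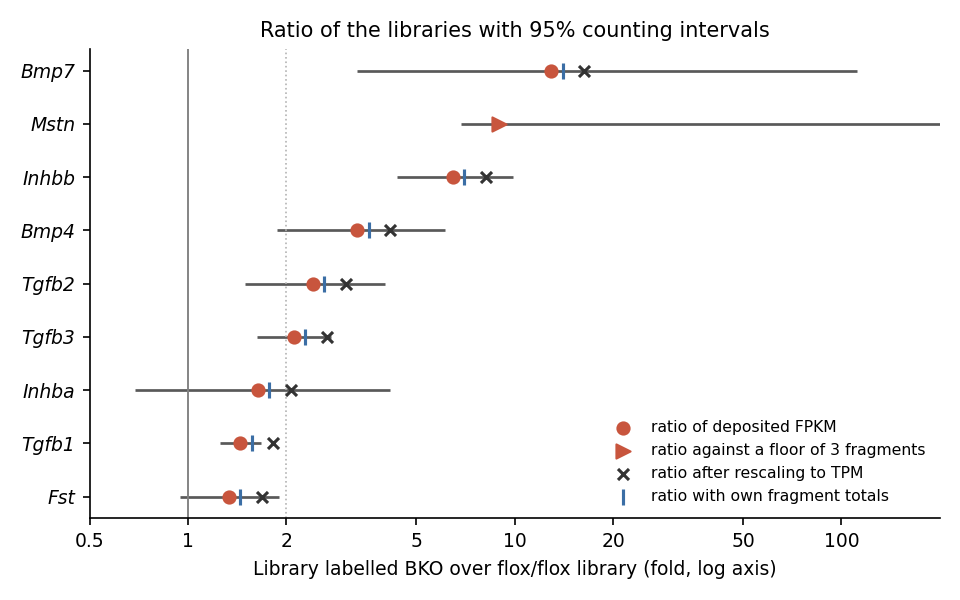
Ratio between the libraries, BKO label over flox/flox, for 9 of the 10 genes (log axis), with exact 95% counting intervals as lines and the ratios after TPM rescaling (crosses) or with own fragment totals (bars). *Grem1* is left out for its 1 and 3 fragments, the *Mstn* arrow is its 8.92-fold value against a floor of 3 fragments, with an interval that begins at 6.83-fold and runs off the axis, the *Fst* interval uses the smallest whole pair, and the dotted line marks 2-fold. The intervals of *Inhba* and *Fst* cross 1, and those of *Inhbb*, *Mstn* and *Bmp7* lie above 2.

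The counting interval lay above 1 for 7 of the 10 genes. Among those with a mean of at least 1 FPKM these were *Tgfb1*, *Tgfb3* and *Inhbb*, while 36.5% of all such genes with known fragments had an interval above 1. *Inhbb* reached that mean only through the library in which it was high. Among the 6 low genes the interval lay above 1 for *Tgfb2*, *Mstn*, *Bmp4* and *Bmp7*, as it did for 11.6% of all low genes. Where both libraries held at least 20 fragments in sum, it was 4 of 5 against 30.3% of all low genes of that depth. Of these 4, *Mstn* (0 and 31 fragments) and *Bmp7* (2 and 30) reached that depth only through the library in which they were high. The interval lay above 2 for *Inhbb*, *Mstn* and *Bmp7*.

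The order of the levels, compared per length, changed below *Tgfb1*. In the flox/flox library *Tgfb1* was followed by *Fst* and *Tgfb3*, then by *Bmp4* at a level whose interval did not overlap that of *Tgfb3*. From *Bmp4* down through *Inhbb*, *Tgfb2*, *Inhba*, *Bmp7*, *Grem1* and *Mstn*, each gene overlapped the next in its Poisson interval. In the library labelled BKO the order was *Tgfb1*, *Tgfb3*, *Fst*, *Inhbb*, *Bmp4*, *Tgfb2*, *Mstn*, *Bmp7*, *Inhba* and *Grem1*. There *Tgfb2*, *Mstn* and *Bmp7* overlapped their neighbours, as did *Inhba* and *Grem1*, and the place of *Fst* beside *Tgfb3* and *Inhbb* could not be judged. *Inhbb* went from 6.50% to 18.7% of the summed ligand FPKM as *Tgfb1* went from 56.9% to 36.7%.

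Of the 120 other genes of the pathway, listed by role, 71 had a mean of at least 1 FPKM. Higher by 2-fold or more were 21 of them, 29.6%, and 0 were lower by as much, with a median log2 ratio of 0.32. Over all genes tested these shares were 11.0% and 5.91%. Of the 21, *Chrdl1*, *Hfe2*, *Timp1* and *Trim63* were below 1 FPKM in flox/flox and reached the mean only through the library in which they were high, as did 554 of the 1341 genes of all. The 21 genes lay among ligands (*Gdf10*), antagonists, latency and activation genes, co-receptors and response genes, and none was a type I or type II receptor, a signal-passing SMAD or a feedback inhibitor. They included 10 of the 13 TGF-beta and activin response genes tested and 2 of the 5 muscle atrophy genes. The share of 29.6% is therefore not that of the signalling parts alone.

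**Figure D4:**
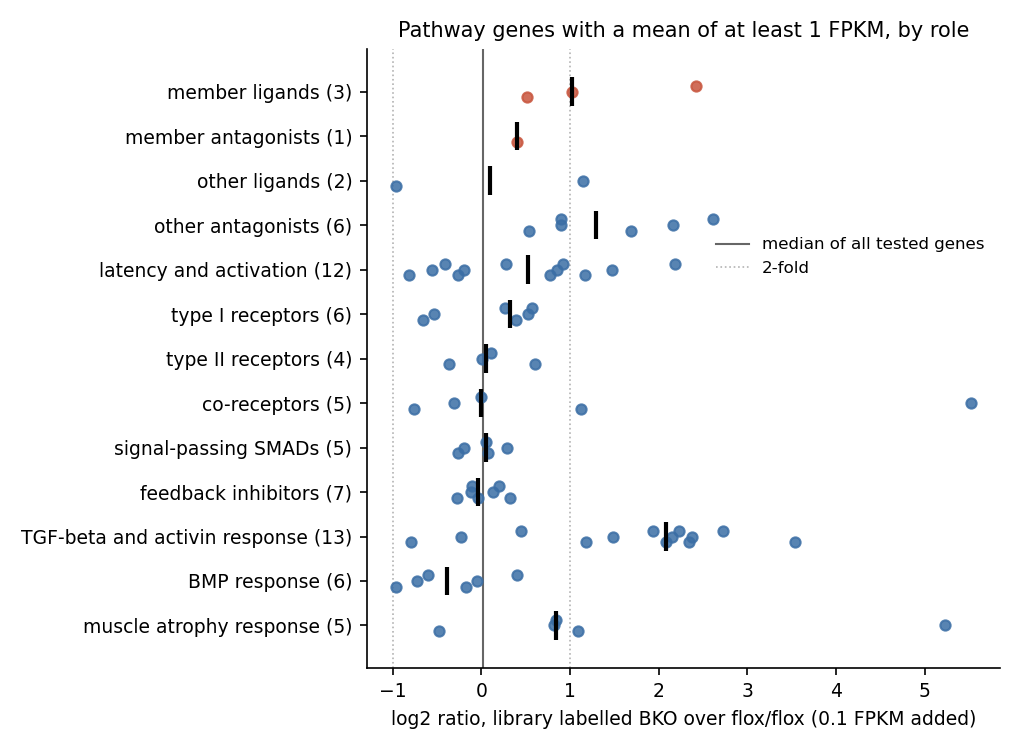
log2 ratio between the libraries, BKO label over flox/flox, for each pathway gene with a mean of at least 1 FPKM, by role (number of genes in brackets). Red points are the 4 genes of the family that reached this mean, blue points the other pathway genes, black ticks list medians, the grey line the median of all genes tested (0.02) and dotted lines 2-fold. The TGF-beta and activin response list has a median of 2.08, the BMP response list one of -0.38.

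Of the other ligands only *Bmp6* and *Gdf10* reached 1 FPKM, and *Gdf10*, a distant relative of the BMPs, was at 1.99 and 4.53 FPKM, 2.28-fold higher. Among the other antagonists 6 were tested and all were higher, 3 of them at least 2-fold. *Chrdl1*, a chordin-like BMP binder, was at 0.584 and 4.10 FPKM, 7.02-fold higher (5.46 to 9.15). *Fstl1*, a secreted follistatin-like glycoprotein, was at 8.38 and 37.9 FPKM, 4.52-fold higher (4.17 to 4.90), and *Nbl1*, a DAN family BMP antagonist, was 3.29-fold higher (2.65 to 4.12). The most abundant, the proteoglycan decorin (*Dcn*), was at 21.8 and 40.5 FPKM, 1.86-fold higher (1.77 to 1.96).

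Genes that store or release latent TGF-beta were tested for 12 of 17, with 3 higher and 0 lower by 2-fold or more and a median log2 ratio of 0.52. *Fbn1*, the microfibril protein fibrillin-1 to which latent complexes attach, was at 2.52 and 11.8 FPKM, 4.69-fold higher (4.28 to 5.16). *Thbs1*, thrombospondin-1, an activator of latent TGF-beta, was at 1.05 and 3.08 FPKM, 2.95-fold higher (2.38 to 3.68). *Bmp1*, a procollagen protease rather than a ligand, was at 6.04 and 13.7 FPKM, 2.26-fold higher. The most abundant latent TGF-beta binding protein, *Ltbp3*, was at 35.9 and 61.3 FPKM, 1.71-fold higher. Of the 12 genes tested, 7 were higher and 5 lower by any amount. Named after their values were seen, *Ltbp2* was at 24.6 and 16.7 FPKM, 1.47-fold lower (1.40 to 1.55). *Ltbp4* was at 23.0 and 17.2 FPKM, 1.34-fold lower (1.26 to 1.41), and *Pcsk5* was 1.79-fold lower (1.49 to 2.16).

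No type I or type II receptor tested was 2-fold apart. All 6 type I receptors tested were within 2-fold, with a median log2 ratio of 0.33. *Acvr1b* (log2 ratio 0.57), *Bmpr1a* (1.45-fold), *Acvr1* (1.32-fold) and *Tgfbr1* (1.21-fold) were higher. *Acvr1c*, the type I receptor ALK7 typical of adipocytes, was at 12.1 and 7.61 FPKM, 1.59-fold lower (1.49 to 1.71), and the endothelial receptor *Acvrl1* was at 7.82 and 5.35 FPKM, 1.46-fold lower (1.29 to 1.65). *Bmpr1b* had 3 and 19 fragments, below the filter. Of the type II receptors *Tgfbr2*, which binds TGF-beta directly, was at 22.0 and 33.5 FPKM, 1.52-fold higher (1.46 to 1.59). The activin receptors *Acvr2a* (log2 ratio 0.00) and *Acvr2b* (-0.36) and the BMP receptor *Bmpr2* (0.10) were within 2-fold, and *Amhr2* had 6 and 17 fragments.

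Among the co-receptors *Hfe2*, hemojuvelin, a BMP co-receptor of muscle and liver, was at 0.339 FPKM (12 fragments) and 20.1 FPKM (824 fragments), 59.3-fold higher (33.8 to 115), beside the muscle marker sums given above. *Rgma*, a related BMP co-receptor, was at 7.41 and 16.2 FPKM, 2.19-fold higher. *Eng*, endoglin, which is abundant on endothelium, was at 36.2 and 21.3 FPKM, 1.70-fold lower (1.60 to 1.81). The 7 endothelial markers were all lower, 5 of them at least 2-fold, with sums of 256 and 95.8 FPKM and none at 0, and their part in the values of *Eng* and *Acvrl1* was not tested. *Tgfbr3*, betaglycan, and *Rgmb* had log2 ratios of -0.31 and -0.01, both of which turned positive under TPM, and *Tdgf1* had 1 fragment in all.

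At the deposited scaling the intracellular part of the pathway was nearly level. *Smad2*, *Smad3* and *Smad4* had log2 ratios of 0.08, 0.29 and -0.20, and *Smad1* and *Smad5* of 0.05 and -0.27, with those of *Smad4* and *Smad5* positive under TPM. *Smad9* was rare, at 21 and 32 fragments. The feedback inhibitors *Smad6*, *Smad7*, *Smurf1*, *Smurf2*, *Ski*, *Skil* and *Pmepa1*, of which several are themselves induced by SMADs, had log2 ratios from -0.28 to 0.32, and *Pmepa1*, the most abundant, was at 21.6 and 19.9 FPKM. Under TPM the log2 ratios of *Smad6*, *Smurf1*, *Skil* and *Pmepa1* turned positive too, and those of *Smad3* and *Ski* were 0.62 and 0.66. *Bambi*, a pseudoreceptor, had 0.409 and 0.373 FPKM.

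Genes known to respond to TGF-beta and activin had the highest median log2 ratio of the role lists, 2.08, and 10 of 13 tested were higher and 0 lower by 2-fold or more. *Timp1*, a metalloprotease inhibitor, was at 0.837 FPKM (13 fragments) and 10.8 FPKM (194 fragments), 12.9-fold higher (7.36 to 24.6). *Fn1*, fibronectin, was at 2.81 and 19.2 FPKM, 6.83-fold higher (6.26 to 7.46). *Col1a1*, the type I collagen chain, was at 26.4 and 138 FPKM, 5.23-fold higher (5.03 to 5.43), and *Col3a1*, the most abundant, was at 48.3 and 214 FPKM. *Ccn2*, connective tissue growth factor, was at 1.08 and 5.87 FPKM, 5.44-fold higher (4.07 to 7.39). The 3 that did not reach 2-fold, named after their values were seen, were *Postn* (1.36-fold higher), *Snai1* (log2 ratio -0.23, 0.09 under TPM) and the smooth muscle actin *Acta2* (1.74-fold lower). Most of these genes are matrix genes. Fibroblast markers had a median log2 ratio of 1.83, with 6 of 9 higher by 2-fold or more, and were 2.02-fold higher in sum. Most of that sum was *Gsn* (287 and 519 FPKM). Their ratios ran from 1.35-fold (*Ly6a*) to 9.01-fold (*Pi16*), and these 3 markers were named after their values were seen. Of the 6 pericyte and smooth muscle markers tested, 5 were at least 2-fold lower, and *Cspg4* was 1.34-fold higher (1.26 to 1.42). The sums of that list were 134 and 63.4 FPKM, with none at 0. The part of these cell types was not tested.

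Of 6 BMP response genes tested, 0 were 2-fold apart or more, and the median log2 ratio was -0.38, which became -0.06 under TPM. *Id1*, the classic target of SMAD1 and SMAD5, was at 67.0 and 34.2 FPKM, 1.96-fold lower (1.79 to 2.14). *Gata2* and *Id2* were 1.69-fold (1.42 to 2.03) and 1.52-fold lower (1.29 to 1.80), *Id3* and *Hey1* had log2 ratios of -0.05 and -0.17 that turned positive under TPM, and *Atoh8* was 1.33-fold higher (1.02 to 1.76). *Id1* and *Hey1* are also expressed by endothelium, whose marker sums are given above.

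Of 5 genes linked to muscle atrophy downstream of myostatin and activin, 2 were at least 2-fold higher. *Trim63*, the muscle ubiquitin ligase MuRF1, was at 0.302 FPKM (15 fragments) and 15.0 FPKM (861 fragments), 49.6-fold higher (29.9 to 89.0), and *Foxo1* was at 8.94 and 19.1 FPKM, 2.14-fold higher. *Fbxo32*, atrogin-1, was 1.81-fold higher (1.61 to 2.04), and *Cdkn1a*, the most abundant, was at 66.8 and 47.9 FPKM, 1.39-fold lower. The skeletal muscle sums again stand beside these values.

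The pathway genes with the log2 ratios nearest to those of the genes tested, over the 2 libraries, were *Bmpr1a* and *Twsg1* for *Tgfb1*, *Foxo1* and *Rgma* for *Tgfb3*, *Col1a1* and *Ccn2* for *Inhbb*, and *Atoh8* and *Acvr1* for *Fst*. Over 2 libraries this likeness is 1 ratio per gene.

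The ratios also depend on scaling. Rescaling both libraries to TPM raised the median log2 ratio of all genes by 0.34, and use of their own fragment totals raised it by 0.12. The genes at least 2-fold apart, 1341 higher and 721 lower, became 2129 and 425 among the same 12205 genes under TPM, and 3025 and 735 when the filter was applied to TPM too, which let 14958 genes pass. All 10 genes stayed higher under each scaling, as had to follow, because both rescalings raise the library labelled BKO against the other. Exons of *Tgfb2*, *Tgfb3*, *Bmp4* and *Fst* overlap genes on the opposite strand by 89 to 257 bases, and those genes were at 0.113 FPKM or less, but the treatment of strand is not given in the sources used here.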

How the data were processed

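Total RNA of iBAT, pooled from 4 mice per genotype, gave 1 paired-end library per group. Per the submitters' processing notes and the study's methods, the authors aligned reads to GRCm38 with TopHat2, counted them with HTSeq 0.6.1 and deposited FPKM, 1 value for each gene in a library. The step from counts to FPKM and the treatment of strand are not given in the sources used here. Groups came from the genotype labels.

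Identifiers were matched to GENCODE M21 (52489 of 52768). FPKM times exon length were whole multiples of a library constant within 0.001 fragments plus a relative 1e-08, which gave fragments for 22405 of the 24856 genes above 0 at the annotated length and for 1001 at another, while 1450 stayed undetermined. For these the smallest whole pair was used where an interval is given. The library sizes behind the deposited FPKM, inferred from these constants, were 17480546 and 20240633 fragments, against totals of 18933003 and 20224261 in annotated genes. In those totals, also used for scaling to own fragment totals, undetermined genes were estimated from FPKM and annotated length, rounded to whole fragments.

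The measure was log2((BKO + 0.1)/(flox/flox + 0.1)), which shrinks ratios of low genes. Those averaging 1 FPKM or more are called tested, with no statistical test, and a gene at least 2-fold apart on this measure is counted. Folds are plain FPKM ratios with a Clopper-Pearson 95% interval. Against 0 fragments a floor of 3 fragments in that library was used, and no fold is given where both libraries held 3 or fewer. Alternatives were other pseudocounts, filters and scalings and the interval's bound. The 10 genes, the pathway roles and the marker lists were chosen with earlier results of these data known. The value of 1 listed macrophage marker is not reported here. Named were all 10, each list's most abundant gene and 3 largest changes, all receptors and SMADs, and the nearest log2 ratios. Python 3.11.15, pandas 2.3.3, numpy 2.4.6 and scipy 1.17.1 were used, and the code was tested on simulated data.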

Additional observations from a re-analysis of the deposited data

How the results depend on the processing

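No paired analysis was possible because each genotype had 1 library, and no library could be left out. All 10 genes kept a log2 ratio above 0 in 50 of 50 values under other settings. This outcome was fixed beforehand and says nothing on robustness. A pseudocount cannot change the sign of a ratio, and both rescalings raise the library labelled BKO against the other. Median centring took off 0.02, less than the smallest log2 ratio, 0.25 for *Grem1*. The size of the ratios did depend on the setting, and 8 of the 50 values moved beyond the range of their counting intervals. With a pseudocount of 1 FPKM the log2 ratio went from 2.74 to 0.65 for *Mstn*, from 1.87 to 0.41 for *Bmp7* and from 2.42 to 1.34 for *Inhbb*. With 0.01 FPKM it was 5.85 for *Mstn* and 3.30 for *Bmp7*. The others moved under TPM, to 0.86 for *Tgfb1*, 4.08 for *Mstn* and 2.80 for *Bmp7*. With a pseudocount of 1 FPKM, 1 of the 4 genes of the family tested was at least 2-fold higher. Of all 12205 genes tested, 975 were higher and 413 lower by as much. With no filter on the mean the family had 5 higher of 10, and the other pathway genes 33 higher and 4 lower of 112. All genes had 3393 higher and 2316 lower of 24856. With a mean of at least 5 FPKM 0 of the 10 genes were left to count, and all genes had 548 higher and 277 lower of 6593. Under TPM the family had 4 higher of 6 tested, the other pathway genes 34 higher and 1 lower of 85, and all genes 3025 higher of 14958. Counted on the bound of the interval nearest to 1, the family had 1 higher of 4 tested and all genes 875 higher and 293 lower of 12205. On that bound only genes with known fragments could be counted, 11298 of the 12205, and *Fst* was not among them. In these settings the set of genes tested, the pseudocount or the scaling changed by construction. Including the 975 above, 31 counts stayed within 1.5 times, those for a pseudocount of 0.01 FPKM, median centring and own fragment totals among them, and 17 did not. The 31 include the counts of family genes lower by 2-fold or more, which were 0 under every setting because all 10 genes were higher. The medians of co-receptors and feedback inhibitors, -0.01 and -0.04, became 0.33 and 0.29 under TPM and 0.11 and 0.07 with own totals, and that of co-receptors 0.12 with no filter. With a mean of at least 5 FPKM the medians of type I receptors, other ligands and signal-passing SMADs turned from 0.33, 0.09 and 0.05 to -0.54, -0.97 and -0.20, and that of type II receptors went from 0.05 to 0.60. Of 77 list medians under other settings, 32 moved beyond the median counting interval of their genes and 8 changed sign. Depth limits *Inhba*, *Grem1*, *Bmp7* and *Mstn*, with at most 9 fragments each in the flox/flox library, and without replicates the spread between mice is unknown.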

Other observations

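Several other genes of the pathway lay below a mean of 1 FPKM and were chosen for description after their values were seen, so they are values only. *Bmp2*, a BMP ligand, had 23 fragments (flox/flox) and 85 fragments (library labelled BKO), 3.19-fold higher (1.99 to 5.30), and *Bmp3*, a BMP that opposes the others, had 11 and 105, 8.24-fold higher (4.42 to 17.0). *Chrd*, chordin, had 24 and 151 fragments, 5.43-fold higher (3.52 to 8.74). *Ltbp1*, a latent TGF-beta binding protein, had 93 and 300 fragments, 2.79-fold higher (2.20 to 3.55). *Itgb6*, the epithelial integrin chain that activates latent TGF-beta, had 0 and 49 fragments, or at least 14.1-fold above a floor of 3 fragments. In the other direction, *Bmp8b*, a BMP of brown fat, had 9 fragments and 1 fragment, 10.4-fold lower with an interval of 1.44 to 457, and the BMP target *Id4* had 91 and 32 fragments, 3.29-fold lower (2.18 to 5.09).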
